A study of Oryza sativa with 8 samples.

Results

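The ABA 8'-hydroxylase genes of rice are described here in seedlings taken through a short dehydration treatment. The 3 genes were picked by name from the expression table, as ABA8ox1 (LOC_Os02g47470), ABA8ox2 (LOC_Os08g36860) and ABA8ox3 (LOC_Os09g28390), out of 34119 loci in all. Transcripts were measured by RNA sequencing in 8 libraries of whole 14-day-old rice seedlings. The 3 groups were the SDG708 RNAi line 708Ri-1-1 under polyethylene glycol (708RNAi_PEG, n = 3), wild-type NIP under polyethylene glycol (WT_PEG, n = 2), and wild-type NIP without treatment (WT_control, n = 3). All seedlings had grown for 7 days on solid medium and 7 days in liquid medium, and the treated ones were then kept for 3 h in a 20% solution of polyethylene glycol (PEG). This polymer lowers the water potential of the medium and so withdraws water from the roots. SDG708 belongs to the SET-domain histone methyltransferases of rice, and 1 RNAi line stands for its knockdown. RNAi seedlings without PEG were not analysed here. Whether the RNAi line and wild-type already differ before treatment therefore cannot be told apart from a difference in their response to PEG. The SDG708 locus itself was not analysed here, and the knockdown was therefore not checked in these libraries.

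Abscisic acid (ABA) is the plant hormone that accumulates in drying tissue, closes stomata and switches on protective genes. Its level is set by synthesis from carotenoids, in which the NCED dioxygenases catalyse the committing cleavage, and by breakdown. The main route of breakdown starts with ABA 8'-hydroxylase, a cytochrome P450 of the CYP707A family, whose product rearranges to phaseic acid. The RefSeq gene table lists ABA8ox1 as CYP707A5 on chromosome 2, ABA8ox2 as CYP707A6 on chromosome 8 and ABA8ox3 as CYP707A7 on chromosome 9. In rice, ABA8ox1 is known for its induction under submergence, and CYP707A genes in many plants rise when leaves are rewetted or when ABA builds up.

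Values are FPKM, reads scaled to gene length and library size, as the authors deposited them, and whole reads were recovered from their steps. Recovered reads per library ranged from 30796702 to 49674478 in 708RNAi_PEG, from 34370345 to 36347080 in WT_PEG and from 34176889 to 37242129 in WT_control. All 3 genes exceeded the minimum of 1 FPKM in every library, the lowest value being 1.64 FPKM. The reads behind a value ran from 208 for ABA8ox3 in a 708RNAi_PEG library to 4384 for ABA8ox2 in another. Nothing in the labels ties replicates to separate plants or cultures, so p-values measure only how these libraries vary, and that variation may be technical. In a whole seedling, fewer cells of a type and less RNA per cell cannot be told apart. WT_control replicate 3 stood apart from the other 2 of its group, with a mean chi-square per gene of 15.5 and 13.2 against them, where they gave 2.21 between themselves. To a lesser degree 708RNAi_PEG replicate 2 stood apart, with 7.84 and 6.80, where replicates 1 and 3 gave 4.05. The 2 WT_PEG libraries gave 3.63. Both leaf markers, LHCB5 and RBCS2, were above 0 in every library, and summed to 2633 to 2832 FPKM in 708RNAi_PEG, 2789 to 2946 FPKM in WT_PEG and 7553 to 8782 FPKM in WT_control. RBCS2 carries most of that sum and did not pass between the RNAi line and wild-type, both treated (2357 and 2282 FPKM, limma adjusted p = 0.76), whereas LHCB5 was lower in the RNAi line (395 and 586 FPKM, limma adjusted p = 0.00051). Both root markers, the silicon transporter genes LSI1 and LSI2, were above 0 in every library, and summed to 9.31 to 9.73 FPKM in 708RNAi_PEG, 10.0 to 10.6 FPKM in WT_PEG and 95.03 to 106.5 FPKM in WT_control. The 10 seed glutelin loci, a list written after their values were seen, summed to between 1008 and 1636 reads in 708RNAi_PEG libraries, against 94 to 168 in WT_PEG and 102 to 123 in WT_control libraries. These markers move with the treatment or the genotype, and their part in the results below was not tested.

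The first comparison asked how the hydroxylase genes differed between PEG-treated and untreated wild-type seedlings. Transcripts of all 3 genes rose under PEG, by very different amounts: 7.03-fold for ABA8ox2, 3.56-fold for ABA8ox1 and 1.97-fold for ABA8ox3 in mean FPKM. Among all tested genes, 38.6% were called higher in this comparison, 36.8% lower and 75.3% in either direction, so a rise alone does not set these genes apart. The share of all tested genes whose libraries do not overlap between these groups was not computed. Separate libraries, as given below, therefore do not set these genes apart either. Without WT_control replicate 3 the log2 fold changes of FPKM + 1 were 1.57 for ABA8ox1, 2.40 for ABA8ox2 and 0.75 for ABA8ox3.

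ABA8ox2 stood at 17.3 and 17.4 FPKM in WT_PEG libraries, against 2.38, 2.58 and 2.45 FPKM in WT_control libraries. The groups were far apart, and the lowest treated library held several times the level of the highest untreated one. The log2 fold change of FPKM + 1 was 2.40 ± 0.05 (SE, limma with Benjamini-Hochberg adjustment over all tested genes, adjusted p = 2.1e-10). Only 2.35% of the 20943 tested genes had a higher log2 fold change.

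ABA8ox1 stood at 11.8 and 11.7 FPKM in WT_PEG libraries, against 3.18, 3.40 and 3.30 FPKM in WT_control libraries. Treated and untreated libraries did not overlap. Its log2 fold change of FPKM + 1 was 1.57 ± 0.05 (SE, limma adjusted p = 3.2e-09), and 5.36% of tested genes had a higher one.

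ABA8ox3 had the smallest response, with 3.45 and 3.90 FPKM in WT_PEG libraries against 1.64, 1.93 and 2.02 FPKM in WT_control libraries. The groups again did not overlap, although the spread within each was wider than for the other two genes. The log2 fold change of FPKM + 1 was 0.71 ± 0.08 (SE, limma adjusted p = 2.0e-05), and 15.4% of tested genes had a higher one. Its replicates varied by 8.79% of their mean in WT_PEG and 10.6% in WT_control, against a counting error of 4.65% and 6.19% from its 449 to 476 and 224 to 288 reads. In WT_PEG, ABA8ox1 and ABA8ox2 varied by 0.561% and 0.580%, below their counting errors of 2.87% and 1.69%. Such closeness of 2 libraries is not read as precision.

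**Figure D1:**
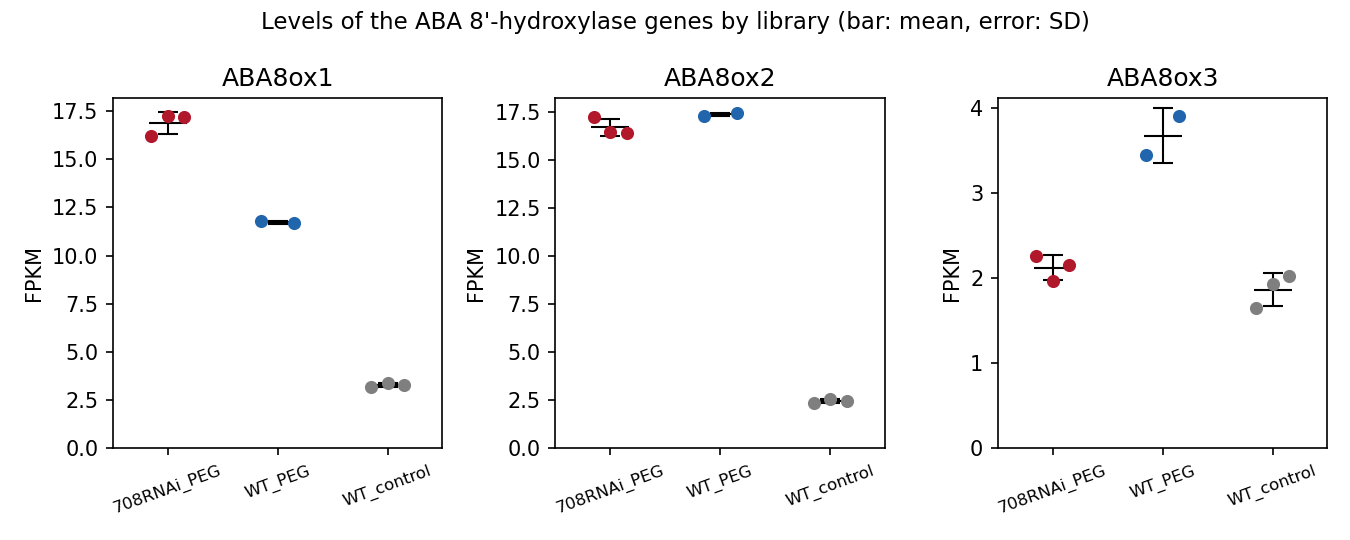
FPKM of ABA8ox1, ABA8ox2 and ABA8ox3 (a panel each, with its own axis from 0) in every library of 708RNAi_PEG, WT_PEG and WT_control; points are libraries, and black bars are the mean with its SD. ABA8ox1 steps down from left to right, ABA8ox2 is near 17 FPKM in both treated groups, and ABA8ox3 is high in WT_PEG alone, at 3.45 and 3.90 FPKM.

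The second comparison set the PEG-treated RNAi line against PEG-treated wild-type. The 3 genes parted here: ABA8ox1 was higher in the RNAi line, by 1.44-fold in mean FPKM, ABA8ox3 was lower, at 0.578 of the wild-type level, and ABA8ox2 did not pass the test. The share of all tested genes whose libraries do not overlap between these groups was not computed, so separate libraries below do not set a gene apart. Over all tested genes 37.6% were called in this comparison, 21.3% higher and 16.4% lower. Of these 7879 calls 56.5% were higher. When libraries were scaled to total recovered reads, 7843 genes were called, and 43.9% of those calls were higher. Without WT_PEG replicate 2, 5135 genes were called, and the calls of the hydroxylase genes were the same.

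ABA8ox1 stood at 16.2, 17.2 and 17.2 FPKM in 708RNAi_PEG libraries, against 11.8 and 11.7 FPKM in WT_PEG libraries. Every RNAi library lay above both wild-type ones. The log2 fold change of FPKM + 1 was 0.49 ± 0.05 (SE, limma adjusted p = 6.3e-05), with a 95% interval of 0.38 to 0.60, and 6.41% of tested genes had a higher one.

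ABA8ox3 stood at 2.26, 1.96 and 2.15 FPKM in 708RNAi_PEG libraries, against 3.45 and 3.90 FPKM in WT_PEG libraries. Every RNAi library lay below both wild-type ones and close to the untreated level. The log2 fold change of FPKM + 1 was -0.58 ± 0.08 (SE, limma adjusted p = 0.00037), with a 95% interval of -0.75 to -0.41. Of all tested genes, 2.64% had a lower log2 fold change.

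ABA8ox2 stood at 17.2, 16.5 and 16.4 FPKM in 708RNAi_PEG libraries, against 17.3 and 17.4 FPKM in WT_PEG libraries. The values did not overlap, but the gap between the nearest libraries was smaller than the spread among the RNAi replicates. The log2 fold change of FPKM + 1 was -0.05 ± 0.05 (SE, limma adjusted p = 0.39). Its 95% interval, as a fold of FPKM + 1, ran from 0.895 to 1.04, which bounds the difference without showing that the levels were equal.

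**Figure D2:**
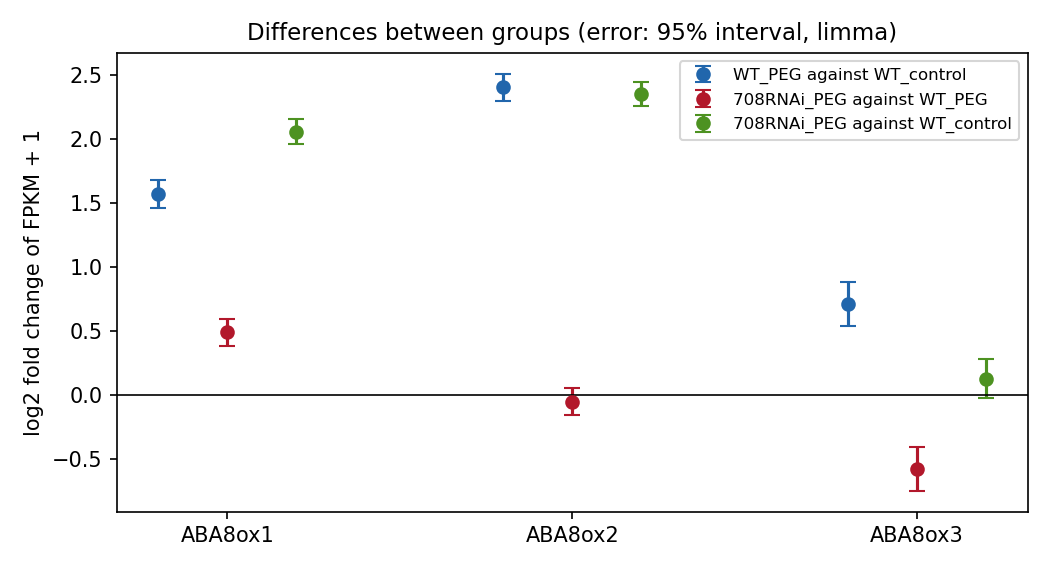
Log2 fold change of FPKM + 1 (y axis) for each gene (x axis) in the 3 comparisons, with 95% intervals from limma. The PEG response of wild-type is above 0 for all 3 genes, while under PEG the RNAi line differs from wild-type upward for ABA8ox1 (0.49), downward for ABA8ox3 (-0.58) and with an interval across 0 for ABA8ox2 (-0.05).

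The third comparison, of the RNAi line under PEG with wild-type left untreated, mixes genotype and treatment. ABA8ox1 and ABA8ox2 were higher in the RNAi line, 5.12-fold and 6.75-fold in mean FPKM, in a comparison in which 41.0% of tested genes were called higher, 40.0% lower and 81.1% in either direction. Their log2 fold changes of FPKM + 1 were 2.06 ± 0.04 and 2.35 ± 0.04 (SE, limma adjusted p = 1.5e-10 and 5.5e-11). ABA8ox3 averaged 2.12 ± 0.149 FPKM in 708RNAi_PEG and 1.87 ± 0.198 FPKM in WT_control (SD, n = 3 each), and the libraries of the groups overlapped. Its log2 fold change of FPKM + 1 was 0.13 ± 0.07 (SE, limma adjusted p = 0.11), with a 95% interval of -0.03 to 0.28. Quantile normalization and array weights put it past the threshold as higher (limma adjusted p = 0.017 and 0.0094), and scaling to total recovered reads turned it to -0.013 (limma adjusted p = 0.86). The comparisons share libraries: WT_PEG stands in the first and the second, and the RNAi libraries in the second and the third. WT_control stands in the first and the third.

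By level, ABA8ox1 thus ran 708RNAi_PEG, WT_PEG, WT_control from high to low, with each step past the test. ABA8ox2 had 708RNAi_PEG and WT_PEG together, not told apart by the test, and WT_control below both. ABA8ox3 had WT_PEG highest, with 708RNAi_PEG and WT_control below it and not told apart. In the authors' deposited table the log2 fold changes of the PEG response were 1.83 for ABA8ox1, 2.81 for ABA8ox2 and 0.98 for ABA8ox3. The authors' deposited table gave 0.52, -0.06 and -0.79 for the RNAi line against wild-type under PEG. Those values carry no added 1 FPKM, and they are further from 0 than the log2 fold changes of FPKM + 1 given above.

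The ratio of a pair of these genes within a library does not depend on how the library was scaled. The FPKM denominators used gene lengths of 2865 bp for ABA8ox1, 5552 bp for ABA8ox2 and 3487 bp for ABA8ox3, recovered from the steps of the values. These lengths were within 2.58%, 0.036% and 0.316% of the whole gene spans in RefSeq (ASM3414082v1), introns included. Levels per gene span therefore understate a gene with long introns against the others, while the movement of a ratio between groups does not depend on length. Which of ABA8ox1 and ABA8ox2 is the higher depends on this division: in recovered reads ABA8ox2 exceeded ABA8ox1 in every library, with 517 to 580 against 356 to 394 in WT_control. Their order is therefore not read from these data.

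The ratio of ABA8ox1 to ABA8ox2 in FPKM was 0.941, 1.05 and 1.05 in 708RNAi_PEG libraries, 0.681 and 0.670 in WT_PEG libraries, and 1.33, 1.32 and 1.35 in WT_control libraries. The ratio was highest in untreated seedlings and lowest in treated wild-type, with the RNAi libraries between them. On the log2 scale the ratio averaged 0.02 ± 0.09 over the 3 RNAi libraries, -0.57 ± 0.02 over the 2 of WT_PEG and 0.41 ± 0.02 over the 3 of WT_control (mean ± SD).

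The ratio of ABA8ox1 to ABA8ox3 was 7.18, 8.78 and 7.99 in 708RNAi_PEG libraries, 3.42 and 2.99 in WT_PEG libraries, and 1.93, 1.76 and 1.63 in WT_control libraries. Under PEG, this pair moved most of the 3 between RNAi and wild-type libraries, with a log2 difference of 1.31. The ratio of ABA8ox2 to ABA8ox3 was 7.63, 8.39 and 7.63 in 708RNAi_PEG libraries, 5.02 and 4.47 in WT_PEG libraries, and 1.45, 1.34 and 1.21 in WT_control libraries. This pair moved most under PEG in wild-type, with a log2 difference of 1.83.

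No ratio overlapped between any 2 groups. The share of all gene pairs that part the groups in this way was not computed, so this does not set these pairs apart. Over these 9 differences an exact two-sided permutation test gave p = 0.2 for the groups of 3 and 2 libraries and p = 0.1 for the groups of 3 and 3. These are the smallest values that this test, which multiplies the smaller tail by 2, can give with so few libraries. Every p adjusted over the 9 tests was 0.2, and none can reach 0.05.

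As shares of the summed FPKM of the 3 genes, ABA8ox1, ABA8ox2 and ABA8ox3 took 47.3%, 46.8% and 5.95% in 708RNAi_PEG. They took 35.8%, 53.0% and 11.2% in WT_PEG, and 43.2%, 32.4% and 24.4% in WT_control. As shares of the summed reads, with no division by length, they took 32.6%, 62.4% and 4.99% in 708RNAi_PEG, 23.5%, 67.5% and 8.96% in WT_PEG, and 31.8%, 46.3% and 21.9% in WT_control. On both scales the share of ABA8ox3 was lowest in the RNAi line and highest in untreated wild-type. By mean share, ABA8ox1 and ABA8ox2 changed places with the scale in 708RNAi_PEG and WT_control, whereas in WT_PEG ABA8ox2 was ahead on both. In FPKM the share of ABA8ox3 ran from 5.51% to 6.32% in the RNAi libraries, from 10.6% to 11.8% in treated wild-type and from 22.8% to 26.0% in untreated wild-type. The summed level was 35.7 ± 0.0605 FPKM over the 3 libraries of 708RNAi_PEG, 32.8 ± 0.358 FPKM over the 2 of WT_PEG and 7.63 ± 0.374 FPKM over the 3 of WT_control (mean ± SD). In 708RNAi_PEG the SD of the sum was below those of ABA8ox1 (0.583 FPKM) and ABA8ox2 (0.452 FPKM) alone, and is not read as precision. In FPKM the sum was higher in every RNAi library, at 35.7 to 35.8 FPKM, than in the libraries of treated wild-type, at 32.5 and 33.0 FPKM. The size of this difference depends on the division by gene span and on the scaling of the libraries. The difference is therefore not read as a higher total in the RNAi line.

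**Figure D3:**
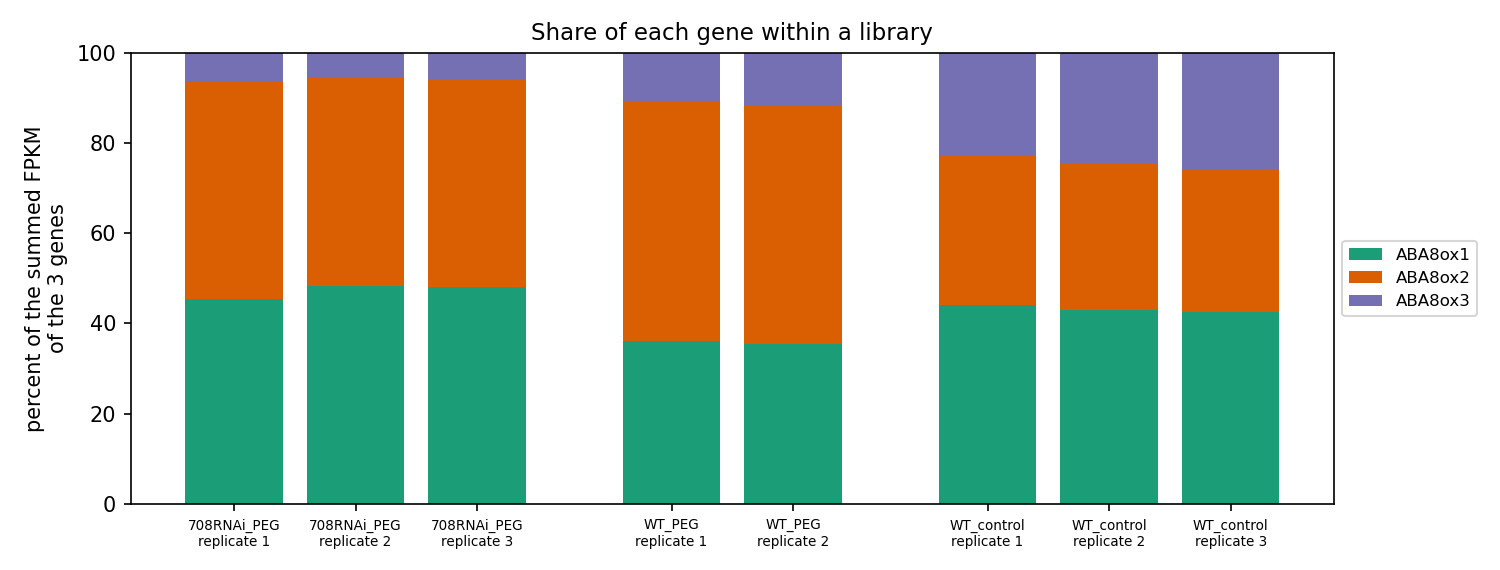
Percent of the summed FPKM of the 3 genes (y axis) taken by ABA8ox1, ABA8ox2 and ABA8ox3 in each library, with levels per gene span, in the order 708RNAi_PEG, WT_PEG, WT_control. The share of ABA8ox3 is below 7% in every RNAi library, against 10.6% and 11.8% in treated wild-type and at least 22.8% in untreated wild-type.

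Breakdown by the hydroxylases has its counterpart in ABA synthesis, and all 7 synthesis genes listed by locus were tested. Under PEG in wild-type 4 rose and 3 fell, where 38.6% of all tested genes were called higher and 36.8% lower. The median log2 fold change of FPKM + 1 was 0.46, against 0.02 over all tested genes. NCED4 (LOC_Os07g05940), an epoxycarotenoid dioxygenase gene, was at 145 and 148 FPKM in WT_PEG libraries against 1.20 to 1.41 FPKM in WT_control libraries. NCED3 (LOC_Os03g44380) rose 13.4-fold and NCED5 (LOC_Os12g42280) 8.27-fold in mean FPKM, while NCED2 (LOC_Os12g24800) fell to 0.0495 of its untreated level. Beside these, the 7.03-fold rise of ABA8ox2 was similar in size to that of NCED5. ABA2 (LOC_Os03g59610), named for an Arabidopsis short-chain dehydrogenase that acts after NCED, fell to 6.76 FPKM in WT_PEG, against 10.5 FPKM in WT_control.

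In the RNAi line against wild-type under PEG, 3 of the 7 synthesis genes were higher and 4 lower, with a median log2 fold change of FPKM + 1 of -0.21 against 0.01 over all tested genes, of which 21.3% were called higher and 16.4% lower. NCED2, at 0.0768 FPKM in 708RNAi_PEG and 0.243 FPKM in WT_PEG, lost its call under 7 of 17 alternatives: no filter, and without WT_control replicate 2, either WT_PEG library or any 708RNAi_PEG library (highest limma adjusted p = 0.21). The 3 that were higher, NCED3, NCED4 and NCED5, had also risen under PEG, as had ABA8ox1. NCED1 (LOC_Os02g47510) was at 29.9 ± 1.09 FPKM in 708RNAi_PEG, 128 ± 6.18 FPKM in WT_PEG and 256 ± 17.9 FPKM in WT_control (mean ± SD of 3, 2 and 3 libraries). ZEP1 (LOC_Os04g37619), the zeaxanthin epoxidase gene upstream of the NCED step, was at 23.5, 31.6 and 22.7 FPKM in 708RNAi_PEG, WT_PEG and WT_control. ZEP1 and ABA8ox3 were the 2 genes of these 10 that rose under PEG in wild-type and were lower in the RNAi line. Against untreated wild-type, where 41.0% of tested genes were called higher and 40.0% lower, 3 synthesis genes were higher in the RNAi line and 3 lower. ZEP1 did not pass (limma adjusted p = 0.22). With quantile normalization or total recovered reads, 4 synthesis genes were lower. The median over the 7, in log2 fold change of FPKM + 1, was 0.05 against 0.01 over all tested genes.

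**Figure D4:**
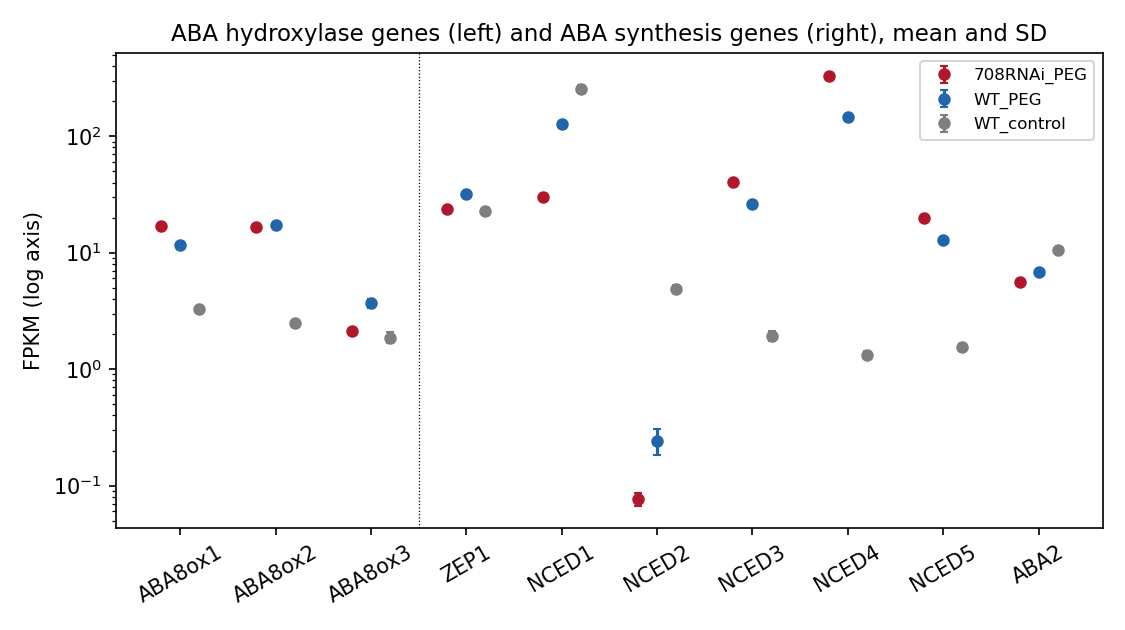
Mean FPKM with its SD (log axis) of the 3 hydroxylase genes, left of the dotted line, and of 7 ABA synthesis genes, right of it, in 708RNAi_PEG, WT_PEG and WT_control. The hydroxylase genes span 1.87 to 17.4 FPKM, a narrow range beside NCED4, which has 326, 146 and 1.32 FPKM in the 3 groups.

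Clade A protein phosphatases PP2C hold ABA signalling in check and are themselves ABA-responsive genes. All 9 listed PP2C genes rose under PEG in wild-type, where 38.6% of all tested genes were called higher. Their median log2 fold change of FPKM + 1 was 3.19, and all 3 hydroxylase genes lay below that median. The 4 with the largest log2 fold changes included PP2C51 (LOC_Os05g49730), up 85.3-fold in mean FPKM, and PP2C30 (LOC_Os03g16170), up 33.2-fold. PP2C68 (LOC_Os09g15670) rose 25.3-fold and PP2C49 (LOC_Os05g38290) 17.5-fold. The rises of the 9 in mean FPKM ran from 1.70-fold for PP2C53 (LOC_Os05g51510) to 85.3-fold for PP2C51, beside 1.97-fold for ABA8ox3 and 7.03-fold for ABA8ox2. In the RNAi line against wild-type under PEG, 3 of the 9 were higher, 0 were lower and 6 did not pass, with a median of 0.02. Of all tested genes, 21.3% were called higher, 16.4% lower and 37.6% in either direction. The call of PP2C68 was lost under 4 of 17 alternatives: quantile normalization, and without WT_PEG replicate 1, 708RNAi_PEG replicate 1 or 708RNAi_PEG replicate 3 (highest limma adjusted p = 0.15). PP2C30, the PP2C gene with the largest such difference, was at 199.6 ± 6.95 FPKM in 708RNAi_PEG (SD, n = 3) against 151 ± 6.74 FPKM in WT_PEG (SD, n = 2), a ratio of 1.32, beside 1.44 for ABA8ox1. No listed PP2C gene was lower in the RNAi line as ABA8ox3 was, although quantile normalization, tried on this list after seeing the data, gave 2 lower. Against untreated wild-type all 9 were higher in the RNAi line, with a median of 3.20, where 41.0% of all tested genes were called higher.

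By order of locus identifier, ABA8ox1 and NCED1 lie 3 table loci apart on chromosome 2. A gene of ABA breakdown and one of ABA synthesis are thus near neighbours there, and they moved in opposite directions in every comparison. NCED1 had a log2 fold change of FPKM + 1 of -0.996 ± 0.0669 under PEG in wild-type and of -2.06 ± 0.07 in the RNAi line against wild-type under PEG (SE, limma adjusted p = 7.1e-07 and 9.8e-08). ABA8ox1 had 1.57 and 0.49 in the same comparisons.

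Over all tested genes, 38.6% were called higher and 36.8% lower under PEG, and 21.3% higher and 16.4% lower in the RNAi line against wild-type. The neighbours' counts are few and are given beside those shares as a description. Of the 10 nearest table loci of ABA8ox1, 5 on each side, 7 were tested, of which 2 rose and 4 fell under PEG. In the RNAi line against wild-type under PEG 1 was higher, 1 lower and 5 did not pass. Of the 10 nearest loci of ABA8ox2, 8 were tested, of which 5 rose and 1 fell under PEG, and 1 was higher and 2 lower in the RNAi line. LOC_Os08g36920, 4 loci past ABA8ox2 and unnamed in the tables used, was at 11.8, 4.75 and 0.0225 FPKM in 708RNAi_PEG, WT_PEG and WT_control. Of the 10 nearest loci of ABA8ox3, 6 were tested, of which 4 rose and 1 fell under PEG, with 4 higher and 1 lower among RNAi libraries. LOC_Os08g36920 was picked out after its values were seen.

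**Figure D5:**
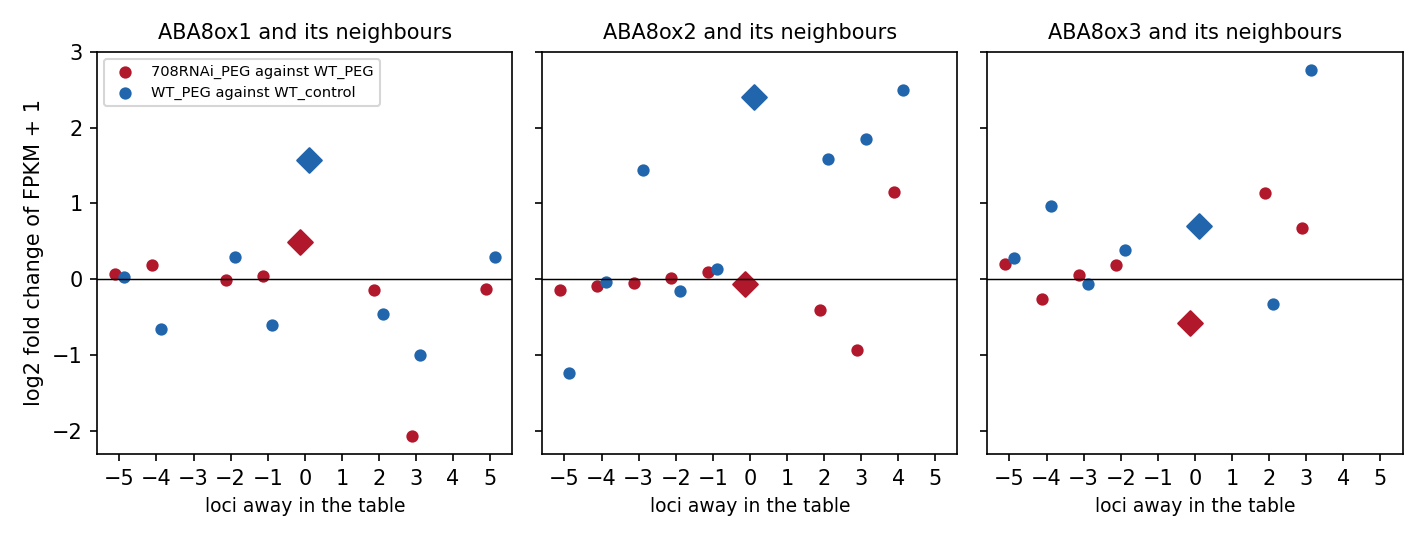
Log2 fold change of FPKM + 1 (y axis) of each hydroxylase gene (diamond at 0) and of its tested neighbours (points) by their distance in table loci (x axis), for 708RNAi_PEG against WT_PEG and for WT_PEG against WT_control. NCED1, at position 3 beside ABA8ox1, lies at -2.06 and -0.996, on the other side of 0 from ABA8ox1.

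The loci whose profiles were most like each gene were taken by Pearson correlation of log2(FPKM + 1) over the 8 libraries, which carry 3 groups and share their scaling. For ABA8ox1 these were LOC_Os07g23640, LOC_Os07g42280 and LOC_Os02g32520, with correlations of 0.9997, 0.9995 and 0.9995. LOC_Os02g32520 had the widest range of them, at 159, 74.9 and 4.63 FPKM in 708RNAi_PEG, WT_PEG and WT_control. For ABA8ox2 they were LOC_Os05g05210, LOC_Os12g39320 and LOC_Os03g05310, each with a correlation of 0.9998. LOC_Os12g39320 was at 22.7, 23.4 and 3.83 FPKM in the same order of groups. For ABA8ox3 they were LOC_Os01g47610, LOC_Os02g04924 and LOC_Os05g04584, with correlations of 0.996, 0.994 and 0.989. LOC_Os01g47610 was at 1.13, 1.79 and 0.967 FPKM, so the locus nearest in profile to ABA8ox3 was also a weakly expressed one. None of these 9 loci is named in the tables used.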

How the data were processed

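RNA was sequenced from 8 libraries of rice seedlings, polyadenylated and stranded per the labels' protocols. The deposited table holds the authors' FPKM per library, the authors' mean FPKM per group, and the authors' deposited log2 fold changes and p-values for 2 comparisons. Per the submitters' processing notes, the tools included HISAT2, featureCounts, SAMtools, cutadapt, FastQC, deepTools and DESeq2, without their roles. The genome build, the aligner's settings and whether counting used strand were not given in the sources used here. Without strand, reads of a gene and of its antisense partner cannot be told apart. None of the authors' p-values is printed, since their adjustment is not stated. FPKM move in steps of 1 read, and whole reads were recovered for 33817 of the 33817 rows above 0, within 0.03 reads. Relative to the library sizes that the FPKM imply, recovered reads were 101.3% to 103.3% in 708RNAi_PEG, 97.3% to 98.3% in WT_PEG and 86.9% to 91.2% in WT_control, so scaling to total reads lowers the treated libraries.

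Loci with at least 1 FPKM in at least 2 libraries (20943) were log2-transformed after adding 1 FPKM and tested in limma 3.58.1 under R 4.3.3, all 3 groups in one model with a variance trend and 5 residual degrees of freedom, two-sided, at a Benjamini-Hochberg adjusted p under 0.05 over all tested loci. The added 1 FPKM makes changes of low genes look smaller; folds in words are ratios of mean FPKM. Ratios of gene pairs were tested by exact permutation. A simulation of 20943 genes gave every gene the same spread beyond counting and changed only a small part of them. For the RNAi comparison under PEG, 93% of its 1.5-fold changes and 100% of its 2-fold changes were called. Real genes differ in spread and far more were called, so these shares need not hold for these libraries. The members and lists were chosen with earlier results of these data known. List loci were written from memory: RefSeq holds the name on the same chromosome for 3 of 3 hydroxylase, 2 of 7 synthesis and 9 of 9 PP2C genes, and the names NCED1, NCED2, NCED4, NCED5, ABA2, LHCB5 and RBCS2 rest on the list alone. Named were the 3 members, in each list up to 4 tested genes with the largest absolute log2 fold change, the 3 loci most correlated with each member, and neighbouring loci by counts. ZEP1, ABA2, PP2C53 and LOC_Os08g36920 fall outside this rule and were named after their values were seen. Promoter motifs were not analysed here. Alternatives were another pseudocount, no filter, 3 scalings, limma-voom with TMM factors on recovered reads, array weights, a fit on 2 groups, a replicate block and each library left out; for the gene lists they were chosen after seeing the data. The closest replicates, WT_control 1 and 2, differed more than counting noise (mean chi-square per gene 2.21), so all were counted separately.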

Additional observations from a re-analysis of the deposited data

How the results depend on the processing

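Of 17 alternatives, all left the direction and the call of each hydroxylase gene in place for PEG against no PEG in wild-type and for the RNAi line against wild-type under PEG. These were another pseudocount, no filter, 3 other scalings, limma-voom on recovered reads, array weights, a fit on 2 groups, a replicate block and leaving out each library. No filter, a fit on 2 groups and leaving out a library of the group not compared cannot change a direction, only a call. In the RNAi comparison under PEG the log2 fold change ran from 0.40 to 0.53 for ABA8ox1 (limma adjusted p from 1.0e-05 to 0.0014), from -0.14 to -0.04 for ABA8ox2 (0.056 to 0.61) and from -0.78 to -0.51 for ABA8ox3 (5.6e-05 to 0.0065). For PEG in wild-type it ran from 1.45 to 1.82 for ABA8ox1, 2.29 to 2.80 for ABA8ox2 and 0.61 to 0.97 for ABA8ox3. For ABA8ox3 in the treated RNAi line against untreated wild-type, quantile normalization gave 0.21 and array weights 0.20, both past the threshold, and total recovered reads gave -0.013; the cause was not tested. Over all genes in that comparison, the median log2 fold change was -0.16 with total recovered reads and 0.01 without. Of the calls made with that scaling 38.9% were higher, against 50.6% of those made without it. In the RNAi comparison under PEG, 43.9% of the calls made with that scaling were higher, against 56.5% of those made without it. Genes called in that comparison numbered 7879, and between 5135 (without WT_PEG replicate 2) and 9339 with 1 library left out; a lone WT_PEG library was assumed to vary like the other groups. All 57 alternatives of the pair ratios kept the sign, and the groups are too small for a call. Since no ratio overlapped between groups, leaving out a library could not have changed a sign. Same-numbered libraries did not deviate together throughout (correlations from -0.23 to 0.36), so the numbers were not taken as pairs; the replicate block called 15849, 7714 and 17213 genes, in place of 15778, 7879 and 16978. Depth limits ABA8ox3 most, with 208 to 476 reads.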
